A study of Homo sapiens with 6 samples.

Results

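The messenger RNA export factors described here are the export receptor genes NXF1 and NXT1, the adaptor genes ALYREF and SARNP, and the THO subunit genes THOC1, THOC2, THOC3, THOC5, THOC6 and THOC7. They were found by gene symbol, and all 10 were among the 12793 rows of the deposited table and among the 11451 rows that were tested. NXF1 was the starting point, because the RBM15 protein is known to bind it. The samples were 6 RNA-seq libraries of the established human line HCT15, from a colorectal cancer. Of these, 3 carried a control guide (genotype WT) and 3 were labelled RBM15 Knockout, made with the nuclease Cas9 and a guide RNA. Cells of both groups grew in RPMI-1640 with serum, penicillin and streptomycin. The labels do not say whether the knockout cells were 1 clone or a pool.

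A finished messenger RNA leaves the nucleus when adaptor proteins that were loaded during transcription and splicing hand it to the receptor NXF1, which carries it through the nuclear pore as a pair with its small partner NXT1. The adaptors belong to TREX, the transcription-export complex. TREX has a core of THO subunits, an RNA helicase (DDX39B, or its relative DDX39A) and RNA-binding adaptors such as ALYREF and SARNP. RBM15 is an RNA-binding protein known both as part of the m6A writer complex and as a partner of NXF1.

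RBM15, the targeted gene, measured 5.97, 5.89 and 5.51 FPKM over controls 1 to 3, against 17.3, 18.5 and 18.0 FPKM over the knockout-labelled libraries. FPKM are fragment numbers divided by transcript length and by the size of the library. The targeted mRNA was thus higher in the libraries that carry the knockout label (log2 difference 1.48, SE 0.0492, limma adjusted p = 3.88e-06; by exact permutation, 2-sided, p = 0.1, the smallest that 3 against 3 libraries can give). Guide positions are not given in the labels, so this mRNA level does not check the label, and each "rose" or "fell" below means higher or lower in the libraries labelled knockout. Of 10 colorectal epithelial markers, 7 were listed, and their summed level was 3800 to 3900 FPKM over the controls and 3480 to 3620 FPKM over the knockout-labelled libraries. Of 7 leukocyte markers only CD68 and CD8A were listed (summed level 3.59 to 4.14 against 6.64 to 7.73 FPKM), of 5 fibroblast markers only COL1A1 (0.917 to 1.41 against 0.835 to 1.41 FPKM), and of 4 endothelial markers 0. The part of these marker levels in the results was not tested. Read depth is unknown, and whether the 3 libraries of a group were separate cultures is not stated, so each p-value speaks only of the spread among libraries, which may be technical. A level is an average over cells: fewer cells with a transcript and less transcript per cell cannot be told apart.

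The bases before the transcription start are shown for 4 members whose level differed between the groups: NXF1, NXT1 and THOC2, which rose, and THOC1, which fell. Those of ALYREF and THOC3, for which no difference was called, are not printed, so the sequences offer no comparison with such members. The sequences are from RefSeq on GRCh38.p14, which held 9 of the 10 members. Starts here are RefSeq starts. For NXT1, THOC1 and THOC2 each is the longest stretch without an annotated exon in the 250 bases before the start. For NXF1 it is 30 bases around 1 motif match (CREB/ATF, described below), picked by choice although other motifs matched too. These bases were not chosen to be free of exons. They lie before the RefSeq start of NXF1 but inside the annotated NXF1 gene, which spans 62792123 to 62806302 on the minus strand. NXT1 is at chr20:23350541-23350735 (plus strand), THOC2 at chrX:123733057-123733302 (minus strand), THOC1 at chr18:268051-268147 (minus strand) and NXF1 at chr11:62805473-62805502 (minus strand). Capitals mark matches, on either strand, to any of 6 motifs. The Sp/KLF box was searched with the letters GGGCGG, a GC-rich element. The CCAAT box was searched with the letters in its name. For the ETS site, bound by a large family of growth-related factors, the letters were CCGGAAG, and for the CREB/ATF site, known from genes that respond to cyclic AMP or stress, they were GACGTCA. The E-box, bound by MYC and its relatives among others, was searched with CACGTG, and the TATA box, which positions the polymerase at some promoters, with TATAAA.
NXF1: ggGACGTCAgcggcgcgcgacgtgctttgc
NXT1: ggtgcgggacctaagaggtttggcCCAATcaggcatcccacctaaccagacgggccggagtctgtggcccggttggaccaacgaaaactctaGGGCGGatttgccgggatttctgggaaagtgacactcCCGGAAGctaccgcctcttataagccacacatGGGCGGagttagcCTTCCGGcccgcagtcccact
THOC2: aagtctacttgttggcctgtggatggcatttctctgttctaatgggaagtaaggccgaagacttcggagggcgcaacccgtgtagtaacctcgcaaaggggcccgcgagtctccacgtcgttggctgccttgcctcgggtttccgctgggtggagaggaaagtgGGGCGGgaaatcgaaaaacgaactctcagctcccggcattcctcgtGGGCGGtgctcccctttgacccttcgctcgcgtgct
THOC1: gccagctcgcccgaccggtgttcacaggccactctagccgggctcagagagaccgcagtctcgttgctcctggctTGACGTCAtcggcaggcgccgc
The 250 bases before the start of NXF1 held 4 Sp/KLF boxes, 1 CREB/ATF site and 1 TATA box, and those of NXT1 held 3 Sp/KLF boxes, 1 CCAAT box and 2 ETS sites. The CREB/ATF site was found before NXF1, which rose, and before THOC1 and SARNP, which fell. This motif was singled out among the 6 searched, so its count among the members does not show enrichment. The part of this match in the levels was not tested. Over 27305 promoters of the same length, 1 per symbol, 42.3% held an Sp/KLF box, 33.0% a CCAAT box, 8.82% an ETS site, 3.29% a CREB/ATF site, 6.49% an E-box and 11.1% a TATA box. A match is a run of letters and does not show that a factor binds there.

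The receptor pair rose together, THO subunits went in different directions, and no member changed 2-fold. At an adjusted p of 0.05 (limma, over all tested genes), 3 of the 10 members rose (NXF1, NXT1 and THOC2), 4 fell (THOC1, THOC6, THOC7 and SARNP) and 3 were not called (ALYREF, THOC3 and THOC5). These counts are to be read against the whole table, where 54.5% of genes were called, 25.3% higher and 29.2% lower. The 7 called members were also those whose groups did not overlap, as was so for 63.0% of all tested genes. The differences were of ordinary size: the median absolute log2 difference was 0.26 over the members and 0.21 over all tested genes, and 0 of the 10 members, against 1.79% of tested genes, differed by at least 1 on the log2(FPKM + 1) scale.

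**Figure D1:**
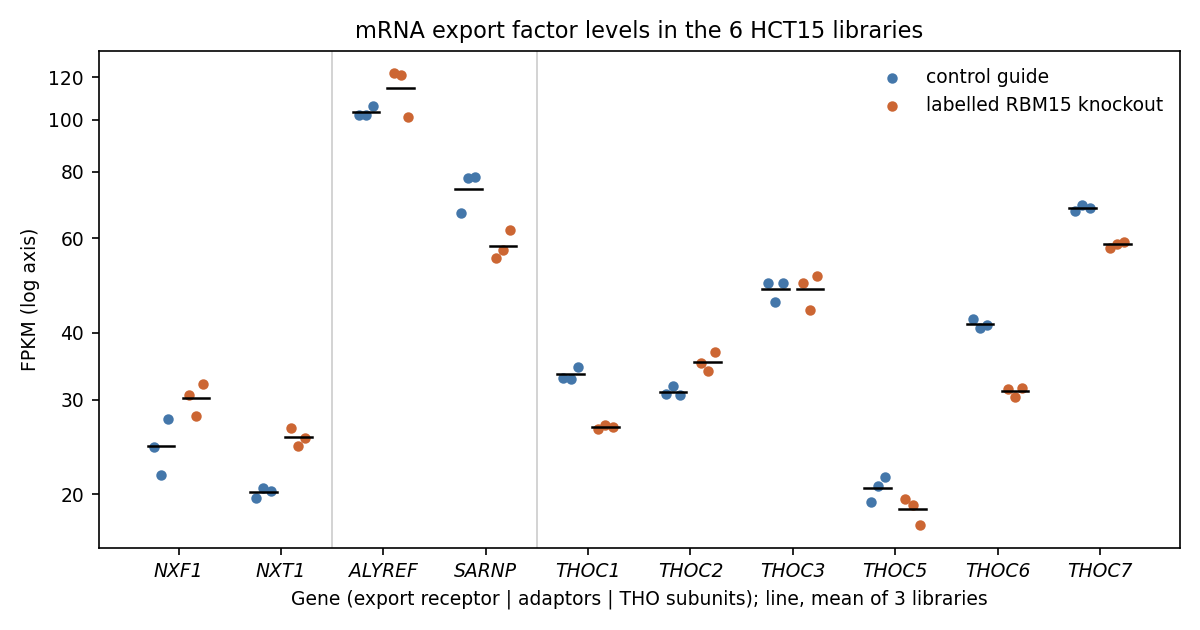
Levels of the 10 export factor genes in each library, in FPKM on a log axis; points are libraries, grouped as control guide or labelled RBM15 knockout, and lines are means of 3 libraries. The groups are apart for NXF1, NXT1, SARNP, THOC1, THOC2, THOC6 and THOC7, and overlap for ALYREF, THOC3 and THOC5.

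NXF1 encodes the receptor that carries bulk mRNA through the pore. The level of NXF1 was 24.5, 21.7 and 27.6 FPKM over the controls and 30.6, 28.0 and 32.1 FPKM over the knockout-labelled libraries. All 3 labelled libraries were higher than every control, but the highest control and the lowest labelled library were close to each other. The mean went from 24.6 ± 2.96 to 30.2 ± 2.05 FPKM (SD, n = 3), which is 1.23-fold. This is 0.29 on the log2 scale (SE 0.0893, limma adjusted p = 0.0286), with an exact permutation p of 0.1 (2-sided), the smallest possible. NXF1 varied more within a group than 83.2% of the tested genes. Its call was lost without control library 1 (log2 difference 0.291, adjusted p = 0.0664), control library 2 (0.208, 0.0674), knockout library 1 (0.283, 0.0732) or knockout library 3 (0.248, 0.0878), while the direction stayed the same in all 16 alternatives. NXF1 (ENSG00000162231) is a protein-coding gene on chromosome 11, minus strand, at 62792123 to 62806302 (GRCh38, as for all positions here), and its exons overlap those of no other annotated gene.

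NXT1, which pairs with NXF1 and helps it bind the pore, gave the steadier result. NXT1 measured 19.7, 20.5 and 20.3 FPKM across controls 1 to 3, against 26.6, 24.6 and 25.5 FPKM across the knockout-labelled libraries. The control values lay within a narrow band, well below the lowest labelled library. The rise was 1.27-fold, from 20.2 ± 0.401 to 25.6 ± 1.0 FPKM (log2 difference 0.33, SE 0.0413, adjusted p = 0.000658), and the call held in all 16 alternatives. NXT1 (ENSG00000132661) is on chromosome 20, plus strand, at 23350736 to 23354777. The ratio of NXF1 to NXT1 was 1.06 to 1.36 in the controls and 1.14 to 1.26 in the libraries labelled knockout, so the ranges overlapped and no shift between the partners was detectable with these libraries.

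Among the adaptors, ALYREF, an RNA-binding protein that bridges TREX and NXF1, was the most abundant member. It measured 102, 102 and 106 FPKM over the controls, against 122, 121 and 101 FPKM over the knockout-labelled libraries. Knockout library 3 lay below all controls while the other 2 lay above them. The log2 difference of 0.15 (95% interval -0.02 to 0.32, adjusted p = 0.114) was not called. Without knockout library 3 it was 0.236 (adjusted p = 0.00218), and after a trend with GC content and transcript length was removed from each library it was 0.281 (adjusted p = 0.0052). ALYREF (ENSG00000183684) is on chromosome 17 at 81887844 to 81891586. It shares 62 exonic bases with ANAPC11 on the other strand, a gene that fell by 0.26 on the log2 scale, a call lost with the GC and length trend removed (-0.134, adjusted p = 0.0779).

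SARNP, an RNA-binding adaptor of TREX, fell. Controls 1 to 3 had SARNP at 66.9, 77.7 and 78.2 FPKM and knockout-labelled libraries 1 to 3 at 55.1, 57.1 and 62.3 FPKM. Control library 1 was the lowest control and still lay above all labelled libraries. The means were 74.3 ± 6.41 and 58.2 ± 3.72 FPKM (log2 difference -0.35, SE 0.0723, adjusted p = 0.00607), and the call held in all 16 alternatives, with differences of -0.418 to -0.307. SARNP (ENSG00000205323) lies on the minus strand of chromosome 12 at 55752463 to 55817756, and 27.24% of its exonic bases are shared with ENSG00000257390 (AC023055.1) on the same strand. That gene measured 17.2, 11.8 and 15.2 FPKM over the controls and 21.5, 14.1 and 17.6 FPKM over the knockout-labelled libraries (log2 difference 0.25, adjusted p = 0.261). How reads were divided between the pair is not known, so the SARNP values depend on that division. A further 11.37% of the exonic bases of SARNP are shared with GDF11 on the other strand, which rose (log2 difference 0.50, adjusted p = 0.0014) at a low level of 2.11 ± 0.113 FPKM in the controls.

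The THO core did not move as a block. Of its 6 measured subunits, THOC2 rose, THOC1, THOC6 and THOC7 fell, and THOC3 and THOC5 were not called. The share called was 66.7%, against 54.5% of all tested genes (25.3% higher, 29.2% lower). With so many genes called both ways, a mix of directions among 6 genes is common in this table. THOC2 encodes the large scaffold subunit. THOC2 measured 30.7, 31.8 and 30.6 FPKM across controls 1 to 3, against 35.2, 33.9 and 36.9 FPKM across the knockout-labelled libraries. Its values did not overlap, and the mean rose by 13.7% (log2 difference 0.18, SE 0.0416, adjusted p = 0.00931). With the GC and length trend removed the difference was 0.116 (adjusted p = 0.031). THOC2 (ENSG00000125676) is on chromosome X at 123600561 to 123733056.

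THOC1, the subunit also known as HPR1, went the other way. Controls 1 to 3 had THOC1 at 33.0, 32.8 and 34.6 FPKM and knockout-labelled libraries 1 to 3 at 26.5, 26.9 and 26.7 FPKM. The labelled libraries were almost alike, and the fall was large against the spread: 33.4 ± 0.982 to 26.7 ± 0.174 FPKM, a log2 difference of -0.31 (SE 0.035, adjusted p = 0.000385). THOC1 (ENSG00000079134) lies on the minus strand of chromosome 18 at 214520 to 268050. Its exons share 110 bases with USP14 on the other strand, whose log2 difference was 0.15 (adjusted p = 0.0294). USP14 lost its call without control library 2 (0.16) or 3 (0.112), without knockout library 2 (0.145) or 3 (0.123), and after correction for GC content and length (0.099).

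THOC6, a subunit with WD repeats, fell. The level of THOC6 was 42.4, 40.8 and 41.3 FPKM over the controls and 31.4, 30.4 and 31.6 FPKM over the knockout-labelled libraries. Each group was tight and the groups were far apart, 41.5 ± 0.823 against 31.1 ± 0.611 FPKM, with a log2 difference of -0.40 (SE 0.0335, adjusted p = 0.000119). The size depended on the sequence composition correction: with the GC and length trend removed it was -0.222 (adjusted p = 0.00454), and the direction was unchanged. By size the difference of THOC6 ranked first among the 10 members, but SARNP ranked first without control library 1 (-0.418, against -0.388 for THOC6) and NXT1 with the trend removed (0.445). THOC6 (ENSG00000131652) is on chromosome 16, plus strand, at 3024027 to 3027755, and 13.98% of its exonic bases are shared with HCFC1R1, which starts 259 bases away on the other strand. HCFC1R1 measured 29.7, 30.3 and 26.8 FPKM over the controls, against 15.5, 14.8 and 14.1 FPKM over the knockout-labelled libraries, a log2 difference of -0.92 (adjusted p = 4.48e-05). A further 3.98% of the exonic bases of THOC6 are shared with BICDL2 on the other strand, which fell (log2 difference -0.2, adjusted p = 0.0287). The call of BICDL2 was lost in several alternatives, among them removal of the GC and length trend (-0.087, adjusted p = 0.261). Whether counting used strand is not stated, and the part of HCFC1R1 or BICDL2 reads in the THOC6 values was not tested.

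THOC7, a small coiled-coil subunit, was the most abundant THO transcript. THOC7 measured 67.6, 69.4 and 68.4 FPKM across controls 1 to 3, against 57.7, 58.7 and 59.2 FPKM across the knockout-labelled libraries. The groups were clearly apart, and the mean fell by 14.5% (log2 difference -0.22, SE 0.0283, adjusted p = 0.00069). Only 1.8% of the tested genes had a smaller spread within groups. The calls of THOC1, THOC6 and THOC7 held in all 16 alternatives. THOC7 (ENSG00000163634) is on chromosome 3 at 63833870 to 63863903.

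THOC3 and THOC5 were the THO subunits without a call. THOC3 encodes a subunit with WD repeats. Controls 1 to 3 had THOC3 at 49.5, 45.7 and 49.6 FPKM and knockout-labelled libraries 1 to 3 at 49.6, 44.1 and 51.1 FPKM. The groups covered each other, and the 95% interval of the log2 difference was -0.15 to 0.14 (adjusted p = 0.974). The level of THOC5 was 19.3, 20.7 and 21.5 FPKM over the controls and 19.6, 19.1 and 17.5 FPKM over the knockout-labelled libraries. Knockout library 1 lay above control library 1, and the log2 difference of -0.12 had an interval of -0.26 to 0.02 (adjusted p = 0.117). NIPSNAP1, which shares 158 exonic bases with THOC5 on the same strand, fell by 1.02 on the log2 scale, from 89.6 ± 1.01 to 43.8 ± 0.409 FPKM, and its part in the THOC5 values was not tested. THOC3 (ENSG00000051596) is on chromosome 5 at 175917873 to 176034680, and THOC5 (ENSG00000100296) on chromosome 22 at 29505879 to 29555216.

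**Figure D2:**
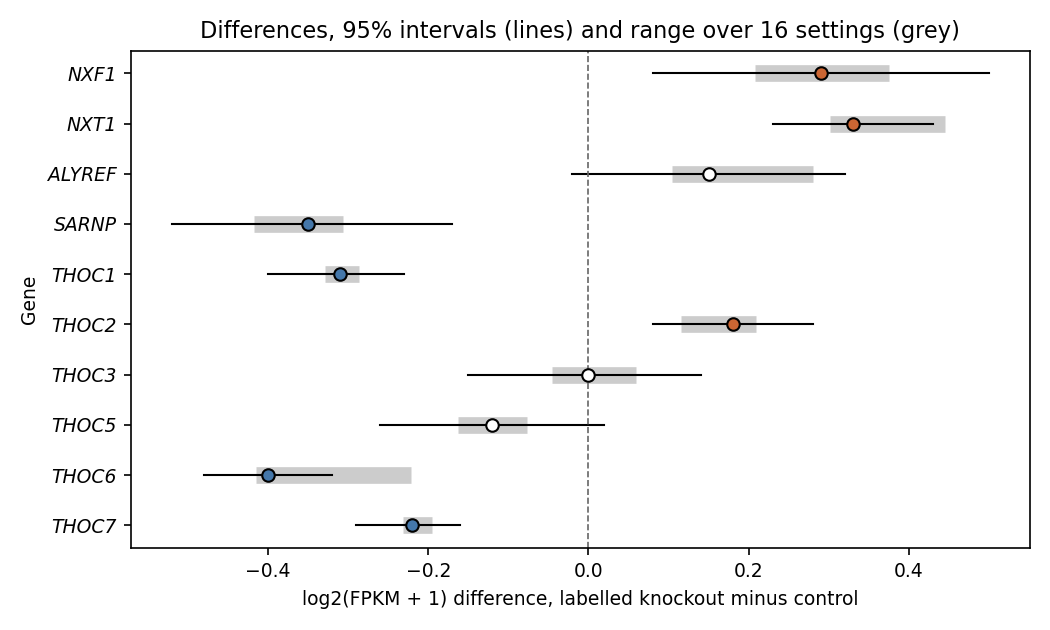
Log2(FPKM + 1) difference of each member, labelled knockout minus control: points are the fitted values (filled where adjusted p was at most 0.05), black lines their 95% intervals, and grey bars the range over 16 alternative settings. NXF1, NXT1 and THOC2 lie above 0, SARNP, THOC1, THOC6 and THOC7 lie below it, and the intervals of ALYREF, THOC3 and THOC5 cross it.

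Because THO subunits work in 1 complex, their levels were also set against each other within each library, which takes out any scaling of whole libraries. Summed over the 6 subunits, the level was 243 ± 2.44 FPKM in controls and 219 ± 5.11 FPKM in knockout-labelled libraries. THOC2 made up 12.8% ± 0.386 of that sum in the controls and 16.2% ± 0.353 in the libraries labelled knockout, while THOC6 went from 17.1% ± 0.368 to 14.2% ± 0.0622 and THOC1 from 13.7% ± 0.267 to 12.2% ± 0.357. The share of THOC7 went from 28.1% ± 0.53 to 26.8% ± 0.69. The share of THOC3, whose level was not called, was 18.9% to 20.4% in the controls and 20.7% to 22.9% in the libraries labelled knockout, and these ranges did not overlap. The share of THOC5 was 8.43% ± 0.421 and 8.59% ± 0.621. The ratio of THOC1 to THOC2 was 1.07, 1.03 and 1.13 in the controls and 0.753, 0.794 and 0.722 in the libraries labelled knockout. The ratio of THOC6 to THOC2 was 1.28 to 1.38 against 0.855 to 0.899, and that of THOC7 to THOC2 was 2.18 to 2.23 against 1.6 to 1.73. None of these 3 ratios overlapped between the groups, but this followed from the levels already given. Each divides a gene that was lower in every labelled library by THOC2, which was higher in every one. The ratios were chosen after the values were seen and are given without a test. They restate the unequal change of the subunits and do not show which of them moved.

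**Figure D3:**
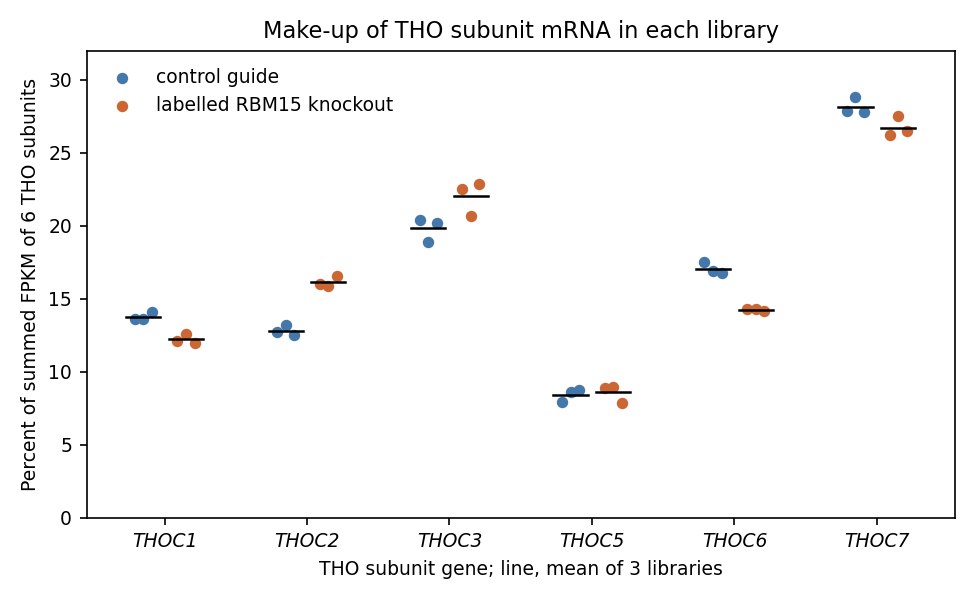
Each THO subunit's share of the summed FPKM of the 6 THO subunits, in percent, for each library; points are libraries and lines are means of 3. THOC2 and THOC3 have larger shares in the libraries labelled knockout, THOC1, THOC6 and THOC7 smaller ones, and THOC5 overlaps between the groups.

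The order of the levels also shifted. In the controls, from the highest mean FPKM, it was ALYREF, SARNP, THOC7, THOC3, THOC6, THOC1, THOC2, NXF1, THOC5 and NXT1. Neighbours overlapped only for SARNP with THOC7 and for THOC5 with NXT1. In the libraries labelled knockout the order was ALYREF, THOC7, SARNP, THOC3, THOC2, THOC6, NXF1, THOC1, NXT1 and THOC5, with overlaps for THOC7 with SARNP, THOC6 with NXF1 and THOC1 with NXT1. NXF1 thus lay below THOC1 in every control and above it in every library labelled knockout. All members were well expressed: the lowest, THOC5, stood above 64.2% of the tested genes and the highest, ALYREF, above 94.9%.

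The 3 genes whose pattern over the 6 libraries was nearest to that of NXF1 were PIAS2, TRAF3IP1 and TTPAL, at Euclidean distances of 0.119, 0.129 and 0.13 between centred log2 values, out of 8729 genes compared. Each followed NXF1 in having control library 2 lowest and knockout library 3 highest. PIAS2 went from 8.38 ± 0.824 to 10.2 ± 0.597 FPKM. As this likeness rests on 6 libraries in 2 groups, it is a description only. With the GC and length trend removed the difference of PIAS2 was 0.128 (adjusted p = 0.162), and its call was also lost without control library 1 (0.262) or 2 (0.197) or knockout library 3 (0.217). The calls of TRAF3IP1 and TTPAL were lost when some single libraries were left out, control library 2 and knockout libraries 1 and 3 for both and control library 1 for TTPAL, with differences of 0.201 to 0.225 for TRAF3IP1 and 0.252 to 0.28 for TTPAL where the call was lost.

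The other TREX genes also moved in both directions. Of 12 further TREX proteins, adaptors and NXF1 relatives, 8 were tested, 4 rose and 1 fell (median log2 difference 0.09, against -0.018 over all tested genes). The share called was 62.5%, against 54.5% in the whole table. Of the helicases of TREX, DDX39B, the most abundant gene of this list, measured 237, 246 and 232 FPKM over the controls and 242, 238 and 235 FPKM over the knockout-labelled libraries, with a 95% interval of -0.07 to 0.07 for its log2 difference (adjusted p = 0.99). Its close relative DDX39A rose from 51.5 ± 1.72 to 64.5 ± 5.03 FPKM (log2 difference 0.32, adjusted p = 0.00383). The pair is similar in sequence, so the division of reads between them is uncertain. FYTTD1, which encodes the NXF1 adaptor UIF, rose from 20.5 ± 0.396 to 25.7 ± 2.14 FPKM, and ERH from 128 ± 5.09 to 157 ± 10.6 FPKM. The gene that fell was CHTOP, another adaptor, at -0.26 on the log2 scale (named after its value was seen).

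Further along the route, TREX-2, the complex that tethers genes to the pore, had 1 gene that rose and 1 that fell of 6 (median -0.05). Its scaffold gene MCM3AP rose from 17.1 ± 0.549 to 22.2 ± 1.33 FPKM. CETN3 fell from 23.0 ± 2.58 to 18.6 ± 1.25 FPKM, a call that was lost without control library 1 (-0.294) or 2 (-0.201) or knockout library 1 (-0.26) or 2 (-0.254). At the pore, 6 of 11 tested docking and release genes rose and 0 fell (median 0.13). Beside that 0, the unadjusted limma p was not below 0.05 for any gene of the list with a negative difference, while correction for GC content and length gave 1 gene that fell. NUP153, a basket nucleoporin that NXF1 can contact, rose from 19.5 ± 0.11 to 31.6 ± 1.66 FPKM (log2 difference 0.67, adjusted p = 5.23e-05), NUP98 rose from 27.5 ± 1.15 to 40.3 ± 1.2 FPKM, and DDX19A, a helicase that strips export factors from mRNA on the cytoplasmic side, rose from 16.8 ± 0.316 to 25.0 ± 0.718 FPKM. DDX19A has a close relative, DDX19B (log2 difference -0.04, adjusted p = 0.671), and reads of the pair could be split between them. The shares called were 33.3% for TREX-2 and 54.5% for the pore list, against 54.5% in the whole table.

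**Figure D4:**
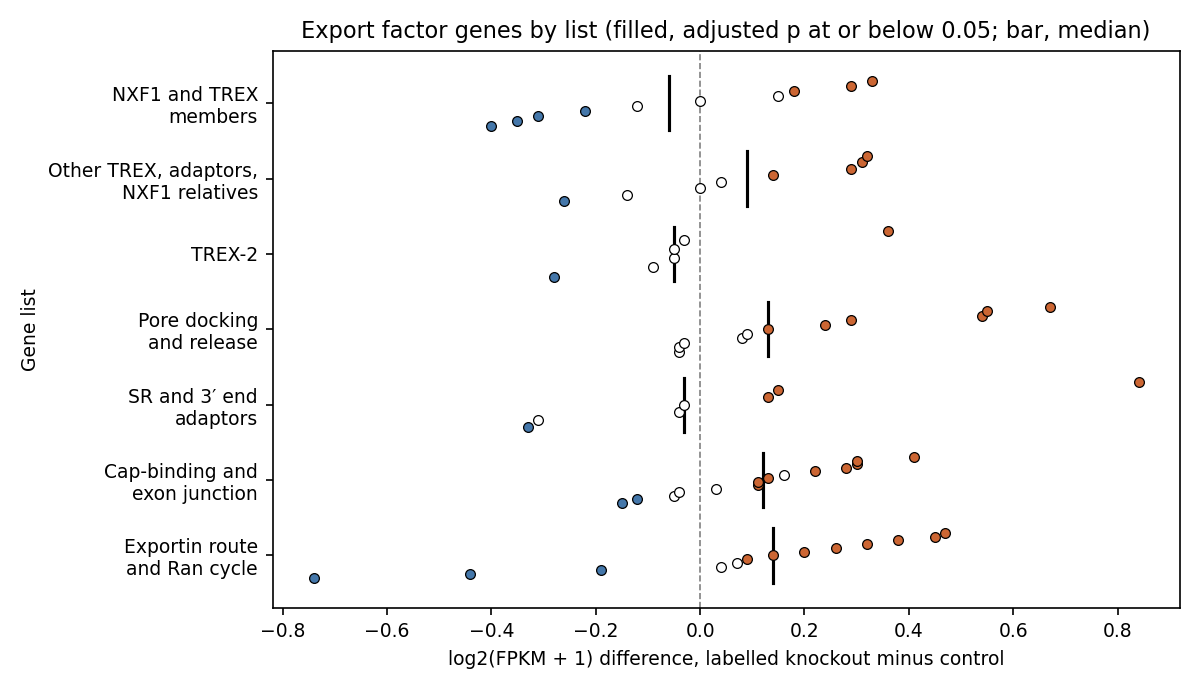
Log2(FPKM + 1) difference, labelled knockout minus control, of the 10 members and of every tested gene in 6 related lists; each point is a gene, filled where adjusted p was at most 0.05, and bars are medians. The members spread from -0.40 to 0.33, and the pore list has 6 filled points above 0 and 0 below (1 below after correction for GC content and length, not drawn).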

How the data were processed

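RNA of 6 HCT15 libraries was sequenced in paired ends on an Illumina NovaSeq, per the labels' protocols. HISAT2 2.2.1, StringTie 2.0.4 and hg38 are named in the submitters' processing notes. The authors deposited 1 table of FPKM values, per the file headers. Tool settings, annotation, strand use and row filter are not stated in these sources. Columns were matched to libraries by name. Column sums were 402288 to 415057 FPKM, which are not depths, and at most 0.93% of ratios of low values fell within 0.1% of each other, so whole reads could not be recovered and no counting intervals are given.

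Rows with a mean of at least 1 FPKM (11451) were tested on log2(FPKM + 1), a scale that understates changes of low genes, with limma 3.58.1 in R 4.3.3 (moderated variances with a trend, 2 groups, no covariate). P-values were 2-sided and adjusted by Benjamini-Hochberg over all tested rows; the threshold was 0.05. Positions, lengths and GC content are from GENCODE 29 on GRCh38. On simulated data for this comparison (11451 genes), 43 of 50 genes changed 1.3-fold, 50 of 50 changed 1.5-fold and 7 of 11251 unchanged genes were called.

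Alternatives were another filter (none, or a mean of 5 FPKM), a pseudocount of 0.1, another scaling (quantile normalization, median centring or TPM scale), limma without the variance trend, a block for replicate number, a GC and length trend removed (97.5% of tested genes had both values), the latter with the block, and leaving out each library. The members and lists were chosen with earlier results of these data known. Named were all members, RBM15, DDX39A, DDX39B, up to 3 called genes per related list with the largest difference, and the 3 genes (mean of at least 5 FPKM) nearest to NXF1. Tables were made with pandas 2.3.3, scipy 1.17.1 and numpy 2.4.6 in Python 3.11.15, and figures with matplotlib 3.10.9.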

Additional observations from a re-analysis of the deposited data

How the results depend on the processing

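Over all genes, 2896 were higher and 3349 lower; the alternatives gave 2494 to 3367 higher and 2826 to 3633 lower. The 4 falling members were called in each alternative, and 2 to 4 members were called higher. NXF1 ranged from 0.208 to 0.375 with single libraries left out, and ALYREF from 0.104 to 0.236. ALYREF was called with the GC and length trend removed, with or without the replicate block (0.281), and THOC2 was not called with both (0.116, adjusted p = 0.0721). Replicate numbers did not pair the libraries: deviations of same-numbered libraries correlated across genes at -0.035, -0.037 and 0, and no library correlated best with its own number. The replicate block gave 2647 higher and 3135 lower genes, and the calls of USP14 (0.149, adjusted p = 0.0709) and CETN3 (-0.283, adjusted p = 0.0565) were lost with it.

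Of the related lists, TREX-2 had 0 lower genes with the replicate block, with or without the GC and length trend, and 0 to 1 with single libraries left out (0 without control library 1 or 2 or knockout library 1 or 2). The pore list had 1 lower gene with the GC and length trend removed, with or without the replicate block. The SR and 3′ end list had 1 higher gene with the replicate block and trend removal and 1 to 3 with single libraries left out (1 without control library 2). Its lower genes numbered 2 with the filter at 5 FPKM or quantile normalization, 3 with the trend removed, and 1 to 2 with single libraries left out (2 without control library 3 or knockout library 1). The cap-binding and exon junction list had 5 higher genes without a variance trend and 5 to 7 with single libraries left out (5 without control library 1 or knockout library 1). It had 1 lower gene with median centring and 0 to 2 with single libraries left out (0 without control library 2, 1 without control library 3 or knockout library 3). The cause of these shifts was not tested. Depth is unknown, so precision rests on 3 libraries per group.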

Other observations

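Other export genes are given here as values. Of 13 genes of the exportin route and the Ran cycle, which export proteins and some RNAs with the help of the small GTPase Ran, 8 rose and 3 fell (median log2 difference 0.14), where 54.5% of all tested genes were called. RAN itself measured 624, 551 and 572 FPKM over the controls, against 355, 328 and 357 FPKM over the knockout-labelled libraries, a log2 difference of -0.74 (limma adjusted p = 6.9e-05). XPO1, the main export receptor for proteins with a nuclear export signal, rose from 108 ± 15.2 to 149 ± 9.21 FPKM, and EIF4E, which binds the mRNA cap, from 58.7 ± 0.836 to 80.8 ± 3.71 FPKM.

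Of 14 genes of the cap-binding and exon junction complexes, which mark processed mRNA, 8 rose and 2 fell (median 0.12). The share called was 71.4%, against 54.5% of all tested genes. NCBP1, the large cap-binding subunit, rose from 20.8 ± 0.472 to 27.9 ± 0.886 FPKM, the exon junction helicase gene EIF4A3 from 65.4 ± 5.59 to 80.9 ± 5.22 FPKM, and PNN from 69.2 ± 1.99 to 85.6 ± 1.9 FPKM. Those that fell were CASC3 (-0.15) and RNPS1 (-0.12), named after their values were seen. The count of higher genes was 5 without control library 1 or knockout library 1, and that of lower genes was 0 without control library 2 and 1 without control library 3 or knockout library 3.

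Of 7 SR and 3′ end adaptors of export, 3 rose and 1 fell (median -0.03). The share called was 57.1%, against 54.5% of all tested genes. The count of higher genes was 1 without control library 2, and that of lower genes was 2 without control library 3 or knockout library 1 and 3 after correction for GC content and length. SRSF1 rose from 81.0 ± 11.3 to 144 ± 4.1 FPKM, and SRSF7, another SR protein that can recruit NXF1, fell from 117 ± 2.68 to 93.1 ± 1.01 FPKM. CPSF6 rose by 0.15 (log2), a call lost without control library 2 (0.135) and after correction for GC content and length (0.06).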
